A study of Mus musculus with 35 samples.

Results

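The Unc13 family was examined in mouse hippocampus: Unc13a, Unc13b, Unc13c and Unc13d, 4 of the 32285 genes counted. The members were chosen by measured values: in nuclei of these same libraries Unc13c had been seen at a lower level in granule neurons and a higher level in astrocytes of mice with a tau transgene. All comparisons of Unc13c in nuclei use those libraries and are therefore given as a description without a test. The other 3 members in nuclei, and all 4 in the bulk libraries, deposited as separate samples, were tested. Nuclei were isolated from frozen hippocampus of C57BL/6 mice aged 9 months in 4 groups: WT and PS19 with 3 libraries each, CLEAR and CLEAR_PS19 with 4 each, of which 1 per group was female. Bulk RNA came from whole hippocampus of WT and PS19 mice, 6 and 6 aged 4 months and 5 and 4 aged 9 months. Their sex is not given in the labels, so bulk tests were not adjusted for it. PS19 mice express mutant human tau from the promoter of Prnp, the prion protein gene. CLEAR mice, as far as the design is known, have a mutation where TFEB, a regulator of lysosomal genes, binds Atp6v1h, a subunit gene of the lysosomal proton pump. CLEAR_PS19 mice carry both.

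Unc13 proteins (Munc13) prepare vesicles for release. Their MUN region helps syntaxin open and join the SNARE complex, a step known as priming, and no transmitter is released without it. Unc13a and Unc13b encode the main priming proteins of hippocampal synapses, Unc13c is best known from cerebellar granule cells, and Unc13d primes secretory granules of immune cells and platelets.

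After filtering, 126613 named nuclei in 12 classes remained, with UMIs (unique molecules) per library, in units of 1e6, from 39.9 to 83.6. Bulk libraries held 9.63 to 17.2 in the same units of reads in genes. As a check of the labels, Prnp rose in granule neurons with the tau transgene, with log2 fold changes of 1.25 for PS19 against WT (adjusted p 0.0036 in edgeR) and 1.19 for CLEAR_PS19 against CLEAR (0.0028). In astrocytes Prnp did not pass by edgeR in either comparison, at -0.02 and 0.12. Atp6v1h in granule neurons was at -1.27 in CLEAR against WT (adjusted p 2.3e-06 in edgeR). Libraries fell into 3 sets by their correlation in granule neurons: set 2 was the 4 females, set 3 was replicates 1 and 2 of both CLEAR groups, and set 1 was the 6 others. The labels do not name these sets. Any 2 libraries shared 10 to 70 barcodes, at most 0.629% of the smaller library.

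The members lie apart in the genome. By the GENCODE M21 annotation of GRCm38, Unc13a (ENSMUSG00000034799) spans chromosome 8, 71624417 to 71671757, on the minus strand, and shares 495 exon bases with Colgalt1 on the other strand, so unstranded bulk reads there cannot be told apart. Unc13b (ENSMUSG00000028456) spans chromosome 4, 43058953 to 43264871, on the plus strand. Unc13c (ENSMUSG00000062151) is the longest, 489545 bases on the minus strand of chromosome 9, 73479422 to 73968966. Unc13d (ENSMUSG00000057948) is the shortest, on the minus strand of chromosome 11, 116062095 to 116077961. None of the last 3 overlaps another gene in the files.

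Promoters are shown for Unc13a, Unc13b and Unc13c (RefSeq, GRCm38.p6, 250 bases before to 50 after it, 5′ to 3′ on the gene's strand), since the CLEAR element is built on the letters CACGTG, marked in capitals. The windows are chr8:71671708-71672007 (minus), chr4:43058703-43059002 (plus) and chr9:73968988-73969287 (minus). For Unc13c the RefSeq start lies upstream of the GENCODE start at 73968966, so its window is wholly outside the span given above.
Unc13a: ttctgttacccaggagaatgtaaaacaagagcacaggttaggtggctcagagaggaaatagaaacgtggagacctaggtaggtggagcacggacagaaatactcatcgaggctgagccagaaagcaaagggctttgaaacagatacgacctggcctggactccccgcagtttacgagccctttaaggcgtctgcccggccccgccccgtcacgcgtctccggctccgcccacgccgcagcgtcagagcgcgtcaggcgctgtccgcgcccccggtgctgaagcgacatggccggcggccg
Unc13b: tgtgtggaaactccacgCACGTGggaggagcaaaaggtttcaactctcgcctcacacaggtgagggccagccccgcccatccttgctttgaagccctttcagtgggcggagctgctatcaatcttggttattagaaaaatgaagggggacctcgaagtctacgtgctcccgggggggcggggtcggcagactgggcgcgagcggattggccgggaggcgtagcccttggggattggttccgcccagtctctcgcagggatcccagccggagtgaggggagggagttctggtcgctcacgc
Unc13c: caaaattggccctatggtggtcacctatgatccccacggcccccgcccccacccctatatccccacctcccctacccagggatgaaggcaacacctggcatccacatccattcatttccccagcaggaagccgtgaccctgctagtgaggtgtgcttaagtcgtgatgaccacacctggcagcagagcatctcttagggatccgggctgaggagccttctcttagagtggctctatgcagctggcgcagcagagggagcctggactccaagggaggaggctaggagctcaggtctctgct
CACGTG, which reads the same on both strands, occurred 1 time in the Unc13b window, from its base 18, and in neither of the others. Of 32851 promoters of this length 7.15% held it. CG dinucleotides numbered 27 in Unc13a, 20 in Unc13b and 6 in Unc13c, against a median of 7 over all promoters.

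Per length, Unc13a was the most abundant member in whole hippocampus. Bulk read counts scaled to library size and exon length (RPKM) were 28.9 ± 3.16 for Unc13a, 3.22 ± 1.07 for Unc13c, 3.05 ± 0.256 for Unc13b and 0.42 ± 0.128 for Unc13d (SD, n = 21). The ranges of Unc13b (2.63 to 3.65) and Unc13c (1.82 to 5.4) overlapped. This depends on the length used, all annotated exons merged, 22746 bases for Unc13b and 8796 for Unc13c. Not scaled to length, Unc13b had a mean of 71.6 CPM and Unc13c of 28.0 CPM in WT at 9 months. Those of Unc13a (22.1 to 34.3) and Unc13d (0.206 to 0.712) overlapped with no other member.

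Each gene had its own distribution over the classes of nuclei. Pooled levels are UMI counts per 1e6 UMIs of the class (CPM) over the 14 libraries. The mean ± SD and the ranges over libraries use normalized totals of the genes that passed the filter, or plain totals in classes with few nuclei. The scales therefore differ: the library mean of Unc13a in Cajal-Retzius nuclei was 84.7 CPM on normalized and 71.8 CPM on plain totals. The clusters were made without the 4 genes, and levels of 2 classes were not tested against each other. Only levels of 1 gene were compared, because UMIs at the 3′ end do not scale with length.

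Of the larger classes, Unc13a was highest in granule, other excitatory and inhibitory neurons. It stood at 129 CPM in granule neurons of the dentate gyrus (131 ± 12.1 over 14 libraries), 117 in other excitatory neurons (117 ± 11.4) and 110 in inhibitory neurons (112 ± 16.1), whose ranges overlapped. The 4176 astrocytes had 10.4 CPM, oligodendrocyte precursors (OPC) 17.6, microglia 0 to 26.8 over libraries and oligodendrocytes 8.23, and no library of these 4 classes reached the lowest of granule neurons, 115. Of the small classes, choroid-ependymal nuclei had 80.4 CPM (353 nuclei, 0 to 158 over 12 libraries), Cajal-Retzius nuclei 68.8 (818 nuclei, 30.4 to 160.0 over 14) and vascular nuclei 28.9, and the ranges of the first 2 overlapped with those of the neurons. Granule neurons held 32.9% and other excitatory neurons 53.7% of its UMIs in named nuclei, beside 26.1% and 47.2% of all UMIs.

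Unc13b was spread over neurons, glia and vessels. Other excitatory neurons (164 CPM, 164 ± 9.13 over libraries) and vascular nuclei (165 CPM, 176 ± 33) overlapped at the top of the pooled levels. Small classes came next: border macrophages had 110 CPM (221 nuclei, 0 to 370 over libraries), choroid-ependymal nuclei 94.2 (353 nuclei, 0 to 287) and Cajal-Retzius nuclei 83.5. Their ranges overlapped with those of the top classes or of OPC. OPC had 81.9 CPM, inhibitory neurons 60.4, granule neurons 55.3 and astrocytes 53.7, and neighbours among the last 3 overlapped. Oligodendrocytes had 25.1 CPM and microglia 15.8. Among clusters it was highest in cluster 23, an excitatory cluster led by Sntb1, Vwc2l and Cntn6, at 453 CPM. In the endothelial-like cluster 27, led by Slco1a4 and Flt1, it was 302 CPM.

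By class, Unc13c was highest outside the neurons. OPC had 497 CPM (521 ± 129 over 14 libraries), vascular nuclei 263 (259 ± 102) and choroid-ependymal nuclei 122 (122 ± 106 over the 12 libraries with any). Cajal-Retzius nuclei had 56.4 CPM (66.0 ± 33.4 over libraries), astrocytes 54.1 (73.0 ± 37.3), other excitatory neurons 39.2 (39.6 ± 16.9), granule neurons 29.2 (27.1 ± 12.1) and inhibitory neurons 25.4 (26.6 ± 11.7). These 5 ranges overlapped, and the order of the first 2 differed between pooled UMIs and library means. The pooled level of astrocytes leans on genotypes without tau, which had more of these nuclei and less Unc13c: means were 30.4 CPM in WT, 55.1 in CLEAR, 75.9 in PS19 and 121 in CLEAR_PS19. Microglia (0.946 CPM, 17 UMIs in 9273 nuclei) and oligodendrocytes (0.869 CPM, 67 UMIs in 35950 nuclei) were at the floor of these libraries. OPC made up 1.97% of the UMIs of named nuclei and 23.6% of those of Unc13c.

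Unc13d was scarce in every class. Microglia had 11.2 CPM (11.5 ± 4.53 over libraries, 202 UMIs) and T cells, with 12 UMIs in 157 nuclei, 33.3 CPM. Granule neurons had 2.18, astrocytes 2.16, oligodendrocytes 2.07 and OPC 1.77 CPM. The 4 libraries of set 3 lay lowest in all named nuclei, at 1.12 to 1.33 CPM, against 1.63 to 3.06 CPM in the others.

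**Figure D1:**
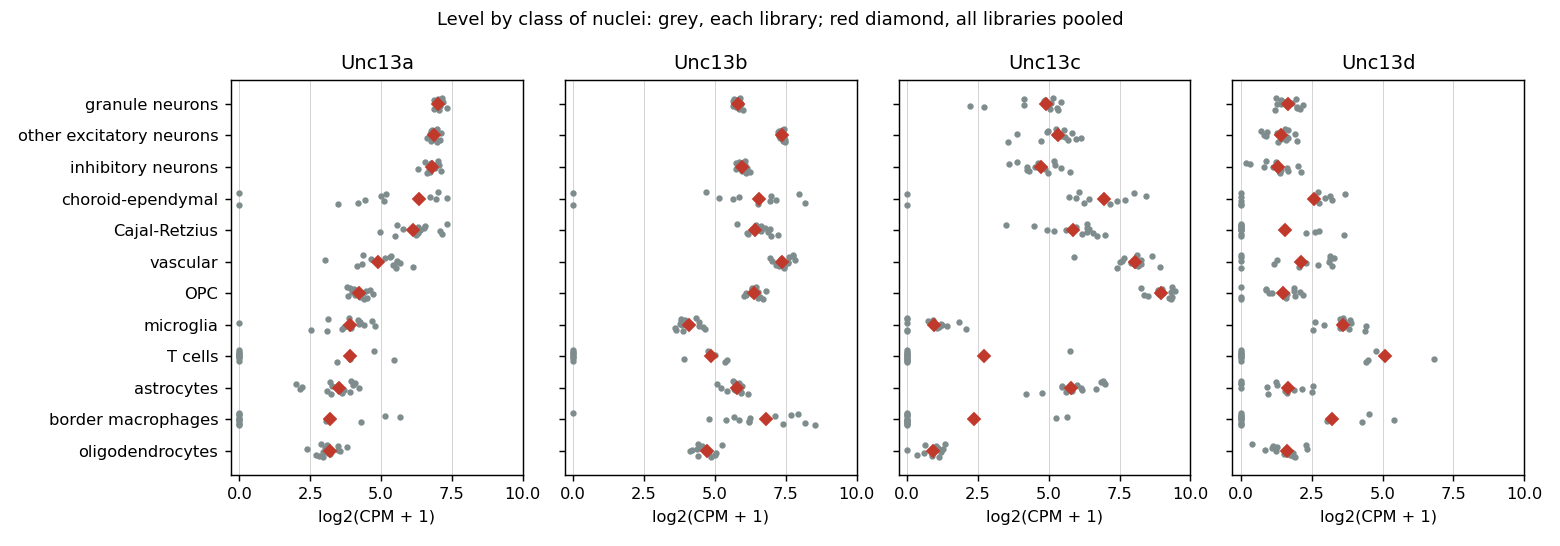
Levels of the 4 genes by class of nuclei, as log2(CPM + 1); grey points are libraries, red diamonds all libraries pooled, and libraries without nuclei of a class have no point. Unc13a is high in the 3 main neuron classes, Unc13c in OPC and vascular nuclei, and Unc13d stays low.

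Within classes, the Unc13c level differed between clusters. In the class named OPC it was 549 CPM in cluster 19, led by the precursor genes Lhfpl3, Pdgfra and Vcan. It was 17.2 CPM in cluster 30, whose 276 nuclei scored highest for the OPC markers but had 0 of them among the 10 leading genes. Leading genes of cluster 30 included Bcas1, Enpp6 and Tcf7l2, known from precursors committed to become oligodendrocytes, so OPC values are given below with and without it. Vascular clusters 26, led by the pericyte genes Atp13a5 and Vtn, and 28, led by Slc6a20a and Slc7a11, had 344 and 315 CPM, and the endothelial-like cluster 27 had 88.1 CPM. Of the excitatory neurons outside the granule layer, clusters 33 (309 nuclei, led by Cpa6, Il1rapl2 and Lef1) and 13 (1883 nuclei, led by 9330185C12Rik, Cdc14a and Necab1) had 1035 and 296 CPM. The largest such cluster, 10, with 10821 nuclei, had 4.88 CPM. Inhibitory neurons ranged from 0.959 CPM in cluster 17 to 49.1 CPM in cluster 15, led by Adarb2 and Vip.

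With the tau transgene, Unc13c differed in opposite directions in granule neurons and astrocytes. In granule neurons, which receive the input of the perforant path, its level was 39.1, 32.3 and 38.6 CPM in WT and 5.63, 3.63 and 16.5 CPM in PS19. All 3 PS19 libraries lay under all WT libraries, a log2 fold change of -2.17 (SE 0.29), and PS19 3, the female, was the highest of them. The PS19 values rest on 88, 21 and 182 UMIs in 1722, 647 and 1579 nuclei. On the CLEAR background the levels were 31.5, 30.9, 32.9 and 42.7 CPM without and 27.3, 27.9, 16.6 and 34.5 CPM with tau, which overlapped (-0.38, SE 0.22). The lowest, 16.6 CPM, belonged to CLEAR_PS19 3, and without this library the difference was -0.24.

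By library set, a grouping made from these same libraries, the difference was of unequal size and was not tested. Between PS19 and WT the log2 ratio of mean CPM was -2.95 in set 1 and -1.23 in set 2. Between CLEAR_PS19 and CLEAR it was -0.99 in set 1, -0.31 in set 2 and -0.18 in set 3. The last 2 lay within the SD between replicates, 0.35 on the log2 scale. Set 2 holds 1 library per group, as does set 1 for CLEAR_PS19 and CLEAR. Sets 1 and 2 hold all 4 genotypes and set 3 only animals with the CLEAR mutation. Counted as nuclei with at least 1 Unc13c UMI after each was thinned to 1000 UMIs, the share was 2.91% ± 0.471 in WT, 1.00% ± 0.736 in PS19 (SD, n = 3), 2.97% ± 0.358 in CLEAR and 2.28% ± 0.569 in CLEAR_PS19 (n = 4). Without thinning, the shares were 15.9%, 4.14%, 14.8% and 10.2%. Oligodendrocytes, which have almost none of the RNA, gave 0.0725% ± 0.02 in WT and 0.0606% ± 0.0258 in PS19 after thinning. Median UMIs per nucleus were 7045 in granule neurons and 1958 in oligodendrocytes. Markers of granule neurons, summed in the same nuclei, ranged from 4838 to 5262 CPM in WT and from 4333 to 4921 CPM in PS19 over the 10 genes of the list, which overlapped. The list of other excitatory neurons (11 genes) did not overlap in these nuclei, at 821 to 1001 CPM in WT and 635 to 788 CPM in PS19. OPC markers (710 to 1144 and 820 to 1036 CPM) and astrocyte markers (742 to 1086 and 882 to 1162 CPM) overlapped. The part of these lists in the result was not tested.

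In astrocytes, glia that take up glutamate at synapses, Unc13c was higher with tau on both backgrounds. Levels were 17.5, 26.0 and 47.7 CPM in WT and 55.3, 70.5 and 102 CPM in PS19, with no overlap (1.32, SE 0.25). On the CLEAR background they were 70.1, 43.7, 43.0 and 63.6 CPM without tau and 127, 123, 113 and 119 CPM with it, again with no overlap (1.16, SE 0.21). The female libraries WT 3 and PS19 3 were the highest of their groups. PS19 values rest on 29, 53 and 59 UMIs in 115, 186 and 195 nuclei, and libraries with tau held 96 to 195 astrocytes, against 313 to 639 without.

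By set, the log2 ratio was 1.53 and 1.09 between PS19 and WT (sets 1 and 2) and 1.39, 0.91 and 1.14 between CLEAR_PS19 and CLEAR (sets 1, 2 and 3). After thinning to 1000 UMIs, 1.95% ± 0.79 of astrocytes had a UMI in WT and 5.57% ± 1.81 in PS19 (n = 3), and 4.26% ± 1.7 in CLEAR and 8.38% ± 3.75 in CLEAR_PS19 (n = 4). The shares without thinning were 5.34%, 11.8%, 9.08% and 15.2%. Median UMIs per astrocyte were 3307. Microglia, a class with almost none of the RNA and a median of 1781 UMIs, gave 0.0921% in WT and 0.129% in PS19 after thinning.

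Other cells' markers in the astrocytes were measured beside this. Granule neuron markers summed to 781 to 938 CPM in WT, 813 to 1120 in PS19, 607 to 855 in CLEAR and 624 to 958 in CLEAR_PS19. OPC markers summed to 962 to 1220, 1018 to 1109, 735 to 1178 and 713 to 1192 CPM in the same order, and vascular markers to 115 to 141, 109 to 120, 117 to 127 and 87.4 to 139 CPM. Markers of other excitatory neurons summed to 1915 to 2155, 1667 to 1955, 1743 to 2192 and 1526 to 1827 CPM. Between WT and PS19, and between CLEAR and CLEAR_PS19, each of these 4 lists overlapped. The reactive astrocyte list (Gfap, Vim, Serpina3n and others) overlapped in neither, at 252 to 284 CPM in WT and 545 to 1426 in PS19, and at 240 to 296 CPM in CLEAR and 406 to 888 in CLEAR_PS19. Of its 7 tested genes 7 rose in PS19 (median 2.02), where 0.754% of all genes were called by edgeR and their median was 0.01. The part of any of these lists in the Unc13c level was not tested. Astrocytes without any granule marker UMI numbered 7, 15 and 31 in PS19 and held 0, 0 and 17 Unc13c UMIs, against 44, 59 and 66 nuclei with 1, 5 and 17 UMIs in WT, too few to compare.

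In OPC, where Unc13c was most abundant, it stood at 630, 599 and 653 CPM in WT and at 363, 327 and 472 CPM in PS19, without overlap (-0.72, SE 0.18). In CLEAR it was 525, 463, 638 and 695 CPM and in CLEAR_PS19 467, 507, 302 and 657 CPM, which overlapped (-0.28, SE 0.16; -0.13 without CLEAR_PS19 3 and -0.19 without CLEAR 3). By library set the log2 ratio was -0.83 and -0.47 between PS19 and WT (sets 1 and 2), and -1.08, -0.08 and -0.02 between CLEAR_PS19 and CLEAR (sets 1, 2 and 3). CLEAR_PS19 3, the lowest here, was also the lowest of its group in granule neurons, and 16.5% of its nuclei in this class belonged to cluster 30. Cluster 30 made up 0.719%, 6.23% and 4.35% of the class in WT and 10.3%, 15.1% and 8.96% in PS19. On plain library totals, levels with it were 631, 569 and 631 CPM in WT and 358, 310 and 458 CPM in PS19. Without it they were 634, 609 and 678 CPM in WT and 411, 385 and 524 CPM in PS19, still apart. In CLEAR they were then 578, 535, 658 and 673 CPM and in CLEAR_PS19 528, 538, 364 and 651 CPM, which overlapped. Markers in the whole class did not overlap between WT and PS19 in 3 lists: oligodendrocyte markers were 461 to 1091 CPM in WT and 1426 to 2877 CPM in PS19, vascular markers 135 to 199 and 102 to 124 CPM, and the OPC markers themselves 16820 to 18404 and 18439 to 20771 CPM. Their part in the Unc13c level was not tested.

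In other excitatory neurons Unc13c was 10.9, 25.4 and 50.2 CPM in WT, 61.8, 69.8 and 46.5 CPM in PS19, 41.9, 36.4, 13.7 and 54.9 CPM in CLEAR and 29.8, 30.8, 44.9 and 37.0 CPM in CLEAR_PS19. WT and PS19 overlapped (1.20, SE 0.44; 0.79 without WT 1). Clusters 13 and 33 made up 0.699% of the class in WT 1 and 0.792% in CLEAR 3, the lowest libraries, and 10.1% to 10.6% in PS19. Without these clusters, on plain totals, all libraries lay between 6.51 and 11.9 CPM. In WT they were then 7.12, 6.91 and 10.6 CPM and in PS19 6.76, 11.9 and 7.57 CPM.

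In inhibitory neurons and vascular nuclei the WT and PS19 libraries overlapped. Inhibitory neurons had 18.7 to 53.1 CPM of Unc13c in WT and 17.7 to 42.1 CPM in PS19, and vascular nuclei 169 to 481 and 241 to 305 CPM. In all named nuclei summed, Unc13c was 33.6, 45.1 and 53.1 CPM in WT and 41.4, 49.3 and 43.4 CPM in PS19 (0.05, SE 0.14). From WT to PS19 the UMIs of Unc13c went from 2351 to 291 in granule neurons, from 2399 to 5157 in other excitatory neurons, from 2354 to 1524 in OPC and from 165 to 141 in astrocytes, of 8225 and 8306 in the sum. These sums are not scaled and mix the number of nuclei with the level. Granule neurons went from 7461 to 3948 nuclei, other excitatory neurons from 6050 to 6558, OPC from 850 to 957 and astrocytes from 1451 to 496. Astrocytes held a small part of the RNA, 2.25% of Unc13c UMIs over all libraries, beside 1.73% of all UMIs.

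**Figure D2:**
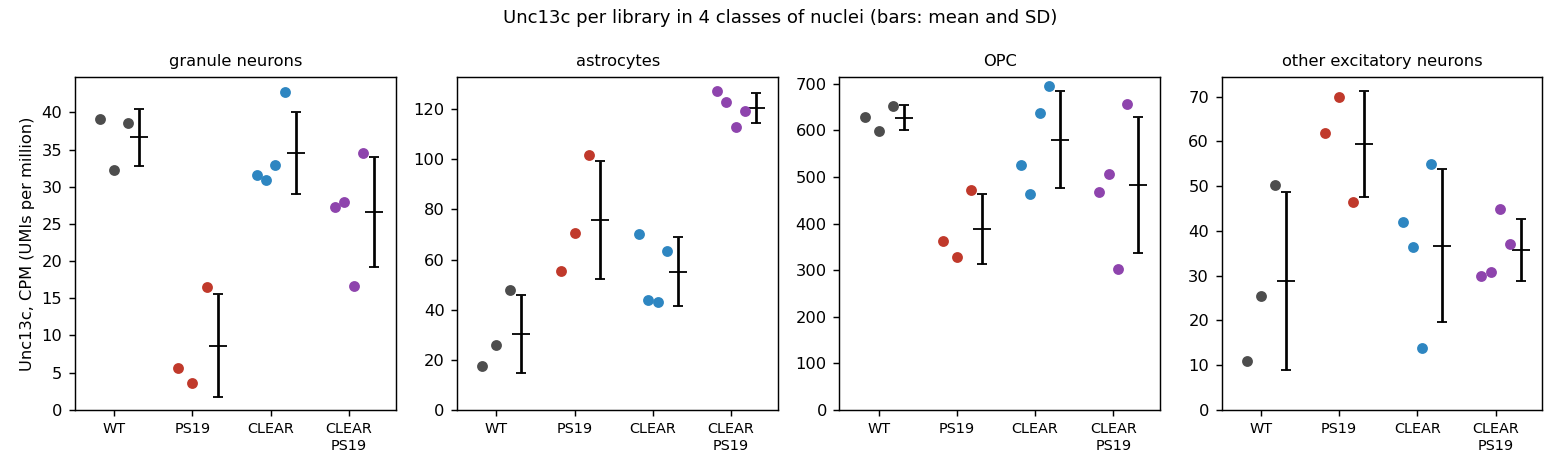
Unc13c in CPM per library in 4 classes of nuclei, by genotype; points are libraries and bars the mean and SD. PS19 lies under WT in granule neurons and OPC and above it in astrocytes, and the CLEAR_PS19 astrocyte libraries lie between 113 and 127 CPM.

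**Figure D3:**
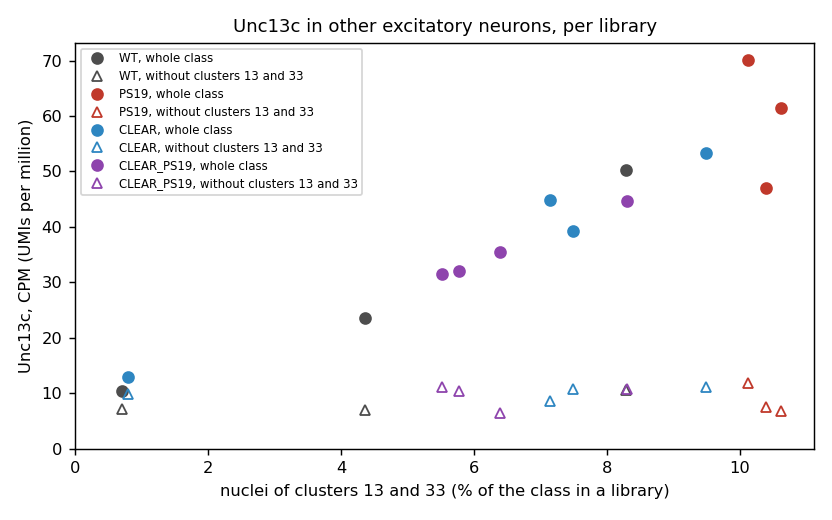
Unc13c in other excitatory neurons per library against the percentage of nuclei of clusters 13 and 33 in the class; filled circles show the whole class and open triangles the class without both clusters. The circles climb with the percentage and the triangles stay between 6.51 and 11.9 CPM.

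The CLEAR mutation was tested for Unc13a, Unc13b and Unc13d. With CLEAR against WT, 0 of 22 tests over the 7 classes and all named nuclei passed by edgeR, 1 was under 0.05 unadjusted, and 0 passed with DESeq2. Of all genes 0.00588% were called in granule neurons, 0.00524% in other excitatory neurons, 0.00649% in inhibitory neurons, 0.00726% in oligodendrocytes, 0.00456% in all named nuclei and 0% in the other classes. With CLEAR_PS19 against PS19, 0 of 22 tests passed by edgeR, 1 was under 0.05 unadjusted, and 0 passed with DESeq2. Of all genes 0.0177% were called in granule neurons, 0.0105% in other excitatory neurons, 0.013% in inhibitory neurons, 0.00726% in oligodendrocytes, 0.566% in microglia, 0.0137% in all named nuclei and 0% in astrocytes and OPC. Unc13b had adjusted p of at least 0.67 in these comparisons by edgeR. Since the mutation, as far as the design is known, lies at Atp6v1h, these comparisons cannot test the CACGTG in the Unc13b promoter.

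For Unc13c the same comparisons are a description. In granule neurons the CLEAR_PS19 libraries (16.6 to 34.5 CPM) lay above those of PS19 (3.63 to 16.5 CPM), by 1.73 on the log2 scale (SE 0.28), with the lowest of one group next to the highest of the other. By library set, the means were 16.6 and 4.63 CPM in set 1 and 34.5 and 16.5 CPM in set 2. Set 3 holds no WT or PS19 library, so the whole groups differ in set as well. CLEAR and WT overlapped there (-0.07, SE 0.23). In astrocytes CLEAR_PS19 (113 to 127 CPM) lay above PS19 (55.3 to 102 CPM), by 0.73 (SE 0.23). By library set, the means were 113 and 62.9 CPM in set 1 and 119 and 102 CPM in set 2. CLEAR was 0.90 above WT in astrocytes (SE 0.22), although their ranges, 43.0 to 70.1 and 17.5 to 47.7 CPM, overlapped. By library set, the means of CLEAR and WT were 43.0 and 21.8 CPM in set 1 and 63.6 and 47.7 CPM in set 2. The part of the sets in these differences was not tested.

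In nuclei, Unc13a, Unc13b and Unc13d did not pass the test with tau in any class where they were tested. Unc13a and Unc13b were tested in 7 classes and in all named nuclei; Unc13d was too scarce to test in astrocytes and OPC. Of 22 tests of PS19 against WT, 0 passed by edgeR, 2 were under 0.05 unadjusted, and 0 passed with DESeq2. Among all genes 0.435% were called in granule neurons, 0.163% in other excitatory neurons, 0.0454% in inhibitory neurons, 0.754% in astrocytes, 0.288% in OPC, 0.755% in oligodendrocytes, 10.3% in microglia and 6.15% in all named nuclei. Of 22 tests of CLEAR_PS19 against CLEAR, 0 passed by edgeR, 2 were under 0.05 unadjusted, and 0 passed with DESeq2. Of all genes 0.0471% were called in granule neurons, 0.021% in other excitatory neurons, 0.026% in inhibitory neurons, 0.00942% in astrocytes, 0.0436% in OPC, 0.0508% in oligodendrocytes, 0.742% in microglia and 0.0411% in all named nuclei. The interaction of tau and CLEAR gave 0 of 22 by edgeR, 0 under 0.05 unadjusted and 0 with DESeq2, with 0% of genes called in each class.

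Unc13a in granule neurons was 130, 115 and 160 CPM in WT and 129, 133 and 133 CPM in PS19, within the spread of WT (-0.02, SE 0.09, adjusted p 0.99 in edgeR). Unc13b there was 63.2, 57.1 and 56.7 CPM in WT and 52.3, 49.4 and 56.4 CPM in PS19 (-0.16, SE 0.09, adjusted p 0.64 in edgeR; -0.10 without WT 1). In OPC Unc13b was 104, 91.3 and 95.5 CPM in WT and 63.5, 67.7 and 78.2 CPM in PS19. The groups did not overlap, but the difference of -0.48 (SE 0.15) did not pass (adjusted p 0.35 in edgeR). Cluster 30, whose share of the class was larger in PS19, had 28.2 CPM of Unc13b against 87.6 CPM in cluster 19. Without it, on plain totals, Unc13b was 105, 90.1 and 95.4 CPM in WT and 63.5, 79.1 and 84.9 CPM in PS19, still apart. In astrocytes Unc13b was 70.2, 60.3 and 59.1 CPM in WT and 42.0, 51.9 and 50.0 CPM in PS19 (-0.38, SE 0.22, adjusted p 0.70 in edgeR), lower in each PS19 library. Unc13d in microglia was 19.8, 4.82 and 12.96 CPM in WT and 10.2, 11.5 and 20.1 CPM in PS19 (0.07, SE 0.44, adjusted p 0.96 in edgeR).

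Summed over all named nuclei, Unc13a was 115, 97.6 and 125 CPM in WT and 97.3, 68.3 and 103 CPM in PS19 (-0.33, SE 0.12, adjusted p 0.13 in edgeR). PS19 2, the lowest, also had the fewest granule neurons, 647, and without it the difference was -0.20. The makeup of the sum differed: granule neurons numbered 7461 of 24619 nuclei in WT and 3948 of 27030 in PS19, astrocytes 1451 and 496, and microglia 1053 and 3211. Its part in levels of the sum was not tested.

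**Figure D4:**
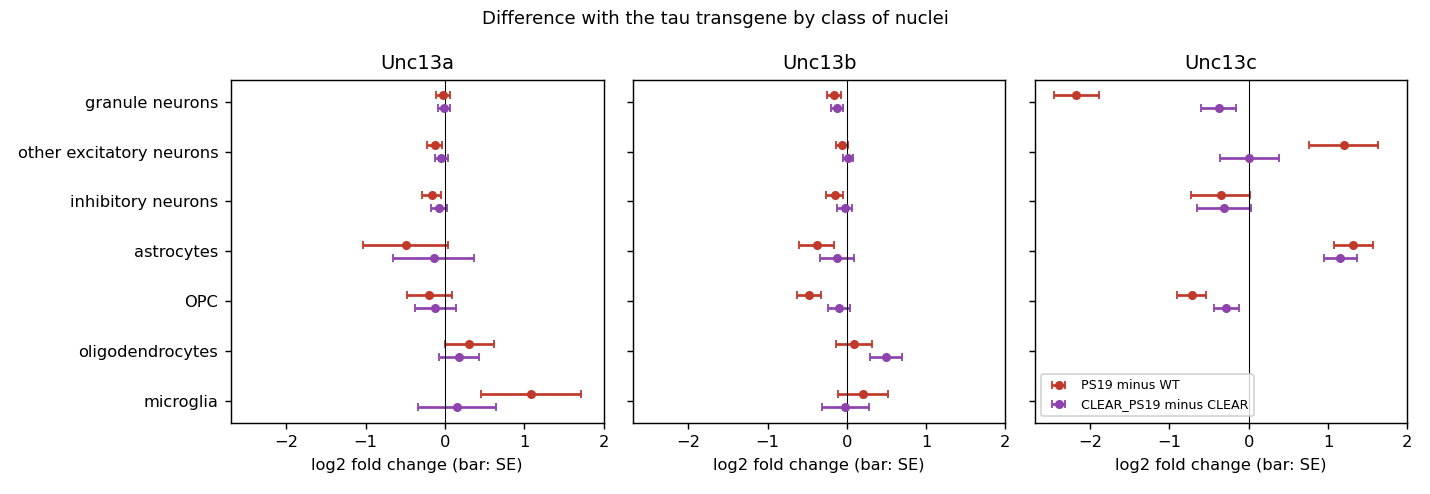
Log2 fold changes of Unc13a, Unc13b and Unc13c with the tau transgene in 7 classes of nuclei, on the WT (red) and CLEAR (purple) background; bars are SE. Unc13c was too scarce to fit in oligodendrocytes and microglia, and its points are a description.

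In bulk hippocampus, Unc13a fell with tau at 9 months. Its level was 353, 356, 390, 375 and 433 CPM in WT and 318, 310, 297 and 279 CPM in PS19 at that age. Every PS19 library lay under every WT library, and the difference was -0.34 (SE 0.07, adjusted p 0.0012 in edgeR), with adjusted p from 2.2e-05 to 0.0098 over the alternatives. Of the 4 members 1 was called, beside 12.8% of all genes (5.09% lower). In bulk, fewer cells of a type and less RNA per cell cannot be told apart.

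At 4 months Unc13a was 348 to 407 CPM in WT (median 369) and 340 to 413 CPM in PS19 (median 382), which overlapped (0.02, SE 0.06, adjusted p 1.0 in edgeR). The PS19 effect differed between the ages by -0.36 (SE 0.09, adjusted p 0.016 in edgeR), where 1 of the members and 5.41% of genes were called (1.04% lower), and the adjusted p was 0.054 without PS19 5 of 9 months. In PS19 mice Unc13a fell by 0.34 on the log2 scale from 4 to 9 months (SE 0.06, adjusted p 7.8e-04 in edgeR), the 1 member called where 17.3% of genes were (7.28% lower). In WT mice the difference between the ages was 0.02 (SE 0.06, adjusted p 0.93 in edgeR).

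Unc13c in bulk was lower in PS19 at 9 months, but the difference did not pass the test. At 9 months it was 28.0, 29.1, 32.1, 28.5 and 22.5 CPM in WT and 16.0, 17.8, 18.8 and 21.2 CPM in PS19. The groups did not overlap, with a difference of -0.60 (SE 0.22, adjusted p 0.077 in edgeR; 0.037 with the replicate number as a block and 0.023 without PS19 1 of 4 months, which shares in the estimate of the spread). At 4 months WT ranged from 23.9 to 47.5 CPM (median 34.7) and PS19 from 17.1 to 46.7 CPM (median 25.0), a difference of -0.39 (SE 0.18, adjusted p 1.0 in edgeR). Without PS19 1, at 46.7 CPM the highest of its group, it was -0.61 (adjusted p 0.71 in edgeR). Of the 4 members 0 passed at 4 months by edgeR, 1 was under 0.05 unadjusted and 0 passed with DESeq2, beside 0.0186% of all genes called. The difference between ages in PS19 was -0.58 (SE 0.21, adjusted p 0.067 in edgeR) and ranged from -0.68 to -0.35 with libraries left out. It was called without PS19 3 of 4 months (adjusted p 0.024 in edgeR) and was smallest without PS19 1 of 4 months (adjusted p 0.19).

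Genes of cluster 13, an excitatory cluster rich in Unc13c, were high in the bulk libraries with the most Unc13c. The 4-month libraries with the most Unc13c were WT 1 (47.5 CPM), PS19 1 (46.7) and WT 2 (46.6). Summed levels of 5 genes that led cluster 13 and no other cluster, a list made after these levels were seen, were highest in the same libraries, at 286, 209 and 178 CPM, against 144 to 163 CPM in the other 4-month libraries. At 9 months they were 123 to 147 CPM in WT and 123 to 138 CPM in PS19, which overlapped. Ttr, a choroid plexus gene, ranged from 25.1 to 5804 CPM. The part of these cells in the Unc13c level was not tested.

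Unc13b in bulk was 71.6 ± 7.24 CPM in WT (SD, n = 5) and 67.2 ± 4.65 CPM in PS19 (n = 4) at 9 months (-0.09, SE 0.08, adjusted p 0.53 in edgeR). Unc13d rested on 19 to 47 reads per 9-month library and was 1.87 ± 0.555 and 2.62 ± 0.767 CPM (0.48, SE 0.26, adjusted p 0.25 in edgeR), a difference within the spread. Between the ages in WT, 0 of the 4 members passed by edgeR, 0 were under 0.05 unadjusted and 0 passed with DESeq2, and 0% of all genes were called.

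**Figure D5:**
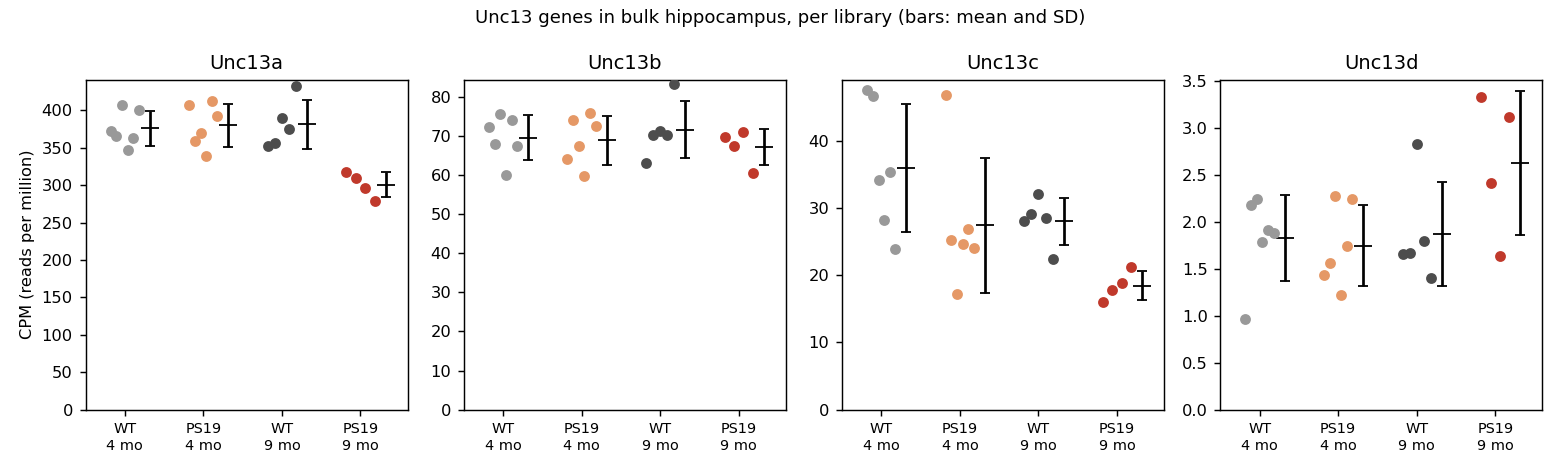
The 4 genes in bulk hippocampus in CPM per library by genotype and age; points are libraries and bars the mean and SD. The 4 PS19 libraries of 9 months lie at 279 to 318 CPM of Unc13a, under the 353 to 433 CPM of WT, and at 16.0 to 21.2 CPM of Unc13c.

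Markers of cell types were read in the same bulk libraries. At 9 months 8 of 10 granule neuron markers fell in PS19 (median -0.46), 2 of 5 genes of neurons in general fell (median -0.19), 6 of 10 astrocyte markers rose (median 0.29) and 10 of 10 microglia markers rose (median 0.94), against a median of -0.01 over all genes, of which 12.8% were called (5.09% lower). The summed granule markers were 760 to 898 CPM in WT and 542 to 631 CPM in PS19. The summed OPC markers, of the class richest in Unc13c, were 528 to 531 and 503 to 537 CPM. Their part in the Unc13a and Unc13c levels was not tested.

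The partners of Unc13 in release were read from a list of 38 genes. At 9 months 6 of the 37 tested in bulk fell and 0 rose (median -0.14), where 5.09% of all genes fell and 12.8% were called in either direction. Of the 6 that fell, the 4 with the smallest adjusted p are named here, and roles within the list were not compared. Rims1, whose protein binds Munc13-1 and holds it at the active zone, was 214 ± 9.96 CPM in WT and 171 ± 11.6 CPM in PS19 (-0.32, SE 0.07, adjusted p 0.0020 in edgeR). The scaffold genes Erc2 (-0.38, adjusted p 0.0036 in edgeR), Bsn (-0.39, 0.0050) and Pclo (-0.32, 0.014) also fell. Stx1a, which encodes a syntaxin of the SNARE complex, did not pass, at -0.22 (adjusted p 0.13 in edgeR). Rab27a, a partner of Unc13d on secretory granules, was at 0.09 (adjusted p 0.69 in edgeR).

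By age, the release genes were tested in the same contrasts. At 4 months 0 of the 37 passed by edgeR and 0 were under 0.05 unadjusted (median 0.01), where 0.0186% of all genes were called. The PS19 effect differed between the ages in 4 of 37, where 5.41% of all genes were called and 1.04% were lower. These were Erc2, Pclo, Bsn and Rims1 (-0.42, -0.41, -0.42 and -0.30, adjusted p from 0.026 to 0.040 in edgeR). From 4 to 9 months in PS19 mice, 12 of the 37 fell and 1 rose (median -0.17), where 17.3% of all genes were called and 7.28% fell. Among the 12 was Syt1, the calcium sensor of fast release (-0.43, SE 0.11, adjusted p 0.0096 in edgeR).

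Within the 7 classes of nuclei 0 genes of the list passed in PS19 against WT by edgeR, with 21 to 36 of them tested and 0 (granule neurons) to 6 (other excitatory neurons) under 0.05 unadjusted. Of all genes, 0.0454% (inhibitory neurons) to 10.3% (microglia) were called in these classes. In granule neurons the median over 35 was -0.02, beside 0.01 over all genes, and Rims1 stood at -0.21 (SE 0.14, adjusted p 0.77 in edgeR). In all named nuclei summed, 4 of 38 fell and 1 rose, where 6.15% of all genes were called and granule neurons were fewer and microglia more numerous in PS19, as given above. Doc2b (-0.81, adjusted p 0.016 in edgeR) and Cplx2 (-0.62, 0.018), both of calcium-triggered release, fell, as did Bsn (-0.36, 0.021), and Vamp8, a SNARE of secretory granules, rose (1.13, 0.019).

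Genes with patterns like each member were taken from the mean log2(CPM + 1) over the 12 classes; the points share libraries, and the coefficients are a description. Dmtn (Pearson r 0.99), Ntng1 (0.99) and Svop (0.99) were most like Unc13a. Raph1 (0.95), Zc2hc1a (0.94) and Aph1b (0.91) were most like Unc13b, and Rora (0.95), Pwwp3b (0.94) and Ptk7 (0.94) most like Unc13c. Gm3716 (0.96), Atf3 (0.95) and AI463229 (0.95) were most like Unc13d. Its coefficients rest on few UMIs, such as 12 in T cells and 4 in border macrophages. Within the family, Unc13b and Unc13c were closest (0.70), and Unc13d had negative coefficients with the other 3 (-0.15 to -0.38). Over the 14 libraries, Zdhhc22 (0.93), Zfp811 (0.90) and Ccpg1 (0.90) were most like Unc13c in granule neurons, and Scrg1 (0.83), Dcaf17 (0.82) and D330023K18Rik (0.79) in astrocytes. They were picked as the highest of 14538 genes compared in granule neurons and 7250 in astrocytes. Whether coefficients this high arise by chance among so many genes was not tested.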

How the data were processed

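Raw UMI counts per gene and barcode were deposited for 14 nuclei libraries (10x Genomics 3′ v3, Cell Ranger 5.0.1 per the file headers; mm10 per the submitters' processing notes) and raw read counts per gene for 21 bulk libraries. Of the latter, 1 table states its making: featureCounts 2.0.0 on exons without strand, per the file headers. STAR and cutadapt are named in the submitters' processing notes. PS19 replicate 2 of 9 months is not used here. Whether introns were counted in nuclei is not given in the sources used here.

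Barcodes with at least 300 genes and under 5% mitochondrial UMIs were kept (144884 of 144991), 12562 doublets called by Scrublet at 0.8% per 1000 nuclei were removed, and 132322 nuclei were clustered with scanpy 1.11.5 (2000 variable genes without the 4 members, 30 components, 20 neighbours, Leiden resolution 1, 34 clusters). Clusters were named "like" a class from fixed markers, and 5709 nuclei of 2 clusters stayed unnamed. Of these, 4533 formed cluster 11, which scored highest for other excitatory neurons but had the vascular marker Dcn among its leading genes. Those nuclei are missing from the other excitatory neurons and from all named nuclei. Border macrophages, T cells, vascular, choroid-ependymal and Cajal-Retzius nuclei are few and were not tested. Members and lists were chosen with earlier results of these data known.

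UMIs of a class were added up within each library. Tests used glmQLFTest of edgeR 4.0.16, a quasi-likelihood method (in R 4.3.3, TMM, filterByExpr, sex as a covariate in nuclei, 1 fit of 4 groups per class or for bulk), two-sided, with Benjamini-Hochberg adjustment over all genes tested at 0.05. CPM use the same normalized totals, or plain totals in classes with few nuclei. On simulated data, 2-fold changes were recovered in 83.2% of changed genes in bulk at 9 months (16008 genes), 64.5% in granule neurons (16748), 47.4% in astrocytes (10284) and 51.3% in OPC (11176). False calls were 10 of 174, 5 of 132, 3 of 94 and 10 of 110 in the same order. Smaller changes were not simulated. Tests of Unc13c for the CLEAR mutation in nuclei, in the original design, were dropped because they reuse the libraries on which it was chosen. Alternatives were DESeq2 1.42.0, no filter, doublets kept, at least 1000 genes per nucleus, resolution 2, library sets or replicate numbers as a block, and leaving out each library. P-values measure the spread between samples, which the labels number as replicates without naming animals. Genes named are the 4 members, Rims1, Stx1a and Rab27a (results for some genes of the rule are not reported here), up to 4 called list genes per comparison by adjusted p, and the 5 genes most like a member by Pearson r, of which 3 are printed.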

Additional observations from a re-analysis of the deposited data

Results flagged for a closer look

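A sample stood apart from its group in 4 of 53 groups of 4 to 6 libraries, where chance gives about 1 in 20. Unc13c was 46.7 CPM in bulk PS19 1 of 4 months, against 17.1 to 26.8 CPM in the other 5. Unc13d was 0.964 CPM in bulk WT 1 of 4 months, against 1.79 to 2.24 CPM, and 2.83 CPM in bulk WT 3 of 9 months, against 1.40 to 1.79 CPM. Unc13b in oligodendrocytes was 37.5 CPM in CLEAR_PS19 3, against 20.3 to 23.1 CPM.

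Effects differed between groups of samples in 2 cases. The PS19 effect on Unc13a in bulk was lower at 9 than at 4 months by an interaction test (-0.36). Unc13c with PS19 was lower in every library of granule neurons (-2.17) and of OPC (-0.72) and higher in every library of astrocytes (1.32), a difference between classes that was not tested.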

How the results depend on the processing

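Of 599 values under an alternative, 586 were rated the same. For counts of members called this meant a similar count, and for tested genes the same side of the threshold. Untested Unc13c values had to stay within the spread of replicates and were not rated for direction. Of the tested genes, 0 reversed, that is, changed sign where a value passed. Unc13c in other excitatory neurons, CLEAR_PS19 against CLEAR, ran from -0.25 to 0.18 with libraries left out, around a value of 0.01. Members called in bulk at 9 months numbered 2 instead of 1 with the replicate block, which added Unc13c (adjusted p 0.037), and 1 to 2 with libraries left out, 2 being without PS19 1 of 4 months. For the PS19 effect between ages they ranged from 0 to 1 and for PS19 between ages from 1 to 2 when libraries were left out in turn. In nuclei no call of Unc13a, Unc13b or Unc13d was gained. The replicate block changed no other call. The numbers were not taken to pair the samples, since the labels do not say that they do. Same-numbered pairs correlated at -0.32 to 0.36 in bulk at 4 months, 0.011 to 0.082 at 9 months and -0.22 to 0.61 in granule neurons. Their medians were 0.15, 0.06 and 0.21 in that order, against 0.01, -0.02 and -0.14 for pairs with different numbers. In granule neurons 11 of 14 libraries correlated best with their own number. In astrocytes 8 of 14 did, in bulk 6 of 12 at 4 months and 4 of 9 at 9 months. Pairing is therefore not excluded in nuclei or in bulk. Nuclei libraries of WT and PS19 with the same number do share sex and library set, as do those of CLEAR and CLEAR_PS19.

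The Unc13c difference in granule neurons ranged from -2.78 to -1.94 (PS19 against WT) and from -0.47 to -0.24 (CLEAR_PS19 against CLEAR) with libraries left out, and in astrocytes from 1.14 to 1.59 and from 1.09 to 1.35. It moved by more than the spread within library set 2 for PS19 in granule neurons (-1.23) and within set 1 for CLEAR_PS19 there (-0.99), both chosen after seeing the data. It also moved in astrocytes without granule marker UMIs (0.57 and 1.83), where too few nuclei remain to compare. Of PS19, only replicate 3 held any Unc13c UMI in those nuclei. In other excitatory neurons PS19 against WT was 0.09 without clusters 13 and 33. The cause was not tested. Astrocyte values rest on 19 to 89 UMIs per library, and Unc13d in bulk on 13 to 47 reads, which limits both.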
